A study of Canis lupus familiaris with 29 samples.

Results

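The genes described here are the G1 cyclins, their kinases and the CDK inhibitors in dogs with pheochromocytoma or paraganglioma (PPGL). A list of 10 genes was matched by symbol to the table of exon counts: the D-type cyclins CCND1, CCND2 and CCND3, the kinases CDK4 and CDK6, the pocket protein gene RB1, and the inhibitors CDKN1A, CDKN1B, CDKN1C and CDKN2C. Of these, 9 were found among the 30951 genes listed, CDKN1C was not found by name, and all 9 passed the low-count filter in every comparison.

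RNA sequencing was performed on tissue of 29 dogs: 10 normal adrenal medullas (NAMs) and 19 PPGLs, 7 of which the labels place in PPGL group 1 and 12 in PPGL group 2. The NAMs came from healthy dogs kept for research, and the tumors arose spontaneously in client-owned dogs of several clinics and were taken at surgery or after euthanasia, so that tissue, origin of the dogs and collection cannot be told apart. No treatment, breed, age or genotype was given in the labels, and both tumor groups hold whole pieces of tumor in which other cell types remain. The authors drew the 2 tumor groups from a principal component analysis of these same samples, so a p-value between them describes that split and is not independent evidence of it.

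The passage from G1 into S phase is controlled by a short chain of proteins. D-type cyclins, made in response to growth signals, bind the kinases CDK4 and CDK6, and the active complexes phosphorylate the retinoblastoma protein encoded by RB1. Phosphorylated RB1 releases E2F transcription factors, which switch on cyclin E, DNA replication genes and other S phase genes. Inhibitors hold the chain back: the INK4 family, which includes the CDKN2C product p18, binds CDK4 and CDK6, whereas the CIP/KIP family, which includes p21 (CDKN1A) and p27 (CDKN1B), acts mainly on cyclin E and CDK2 complexes. Chromaffin cells of the adult adrenal medulla divide rarely, and germline loss of p27 is known to lead to pheochromocytoma in rats.

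In CanFam3.1 coordinates, CCND1 (ENSCAFG00000010700) lies at chr18:48501899-48516005, CCND2 (ENSCAFG00000015381) at chr27:40564921-40594255 and CCND3 (ENSCAFG00000001618) at chr12:10594712-10600891. CDK4 (ENSCAFG00000000280) lies at chr10:1812886-1815789 and CDK6 (ENSCAFG00000001998) at chr14:18188429-18419869. RB1 (ENSCAFG00000004436) lies at chr22:3063239-3257726, CDKN1A (ENSCAFG00000029853) at chr12:5745852-5892281, CDKN1B (ENSCAFG00000013244) at chr27:33611760-33612906 and CDKN2C (ENSCAFG00000028905) at chr15:10220185-10224390. CDKN1A is on the plus strand and the others on the minus strand, and the counts cover exons only. RB1 shares 447 exonic bases with ITM2B on the same strand, so its counts are uncertain as far as reads in that stretch were dropped or assigned to the other gene. The other 8 genes share no exonic base with another gene.

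Library totals were 19258054 to 35918182 counts in NAMs, 18493540 to 31919833 in group 1 and 18208718 to 24569667 in group 2. Levels are given as CPM, that is, counts scaled to the size of each library after TMM normalization. Markers of the adrenal cortex moved with the groups: 10 of 11 were lower in PPGLs than in NAMs, and their mean log2 CPM (the cortical score) was 9.69 ± 0.71 (SD, n = 10) in NAMs, 1.09 ± 1.44 (n = 7) in group 1 and 6.43 ± 1.86 (n = 12) in group 2. Summed over the 11 markers, the level ranged from 14097 to 69042 CPM in NAMs, from 92.0 to 1169 CPM in group 1 and from 255 to 34406 CPM in group 2. Between 1 and 6 of these markers, NR0B1 in every case, were at or under 3 counts in each group 1 tumor, and at most 1 in each group 2 tumor. Over all genes tested, 22.3% were higher and 15.2% lower in PPGLs. Of the other lists, 6 of 9 fibroblast and mural markers were higher, but 3 higher and 1 lower without group 2 replicate 11, described below. Of 11 endothelial markers 4 were lower, and 0 of 6 Schwann cell markers passed. Of 9 leukocyte markers 2 were higher and 1 lower, or 2 and 2 without group 2 replicate 11. Chromaffin markers, which define the labelled tissue, were 3 higher and 1 lower of 11. The leukocyte and chromaffin counts were near the shares over all genes.

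Some tumors stood apart. In group 1 replicate 7, CHGB, which encodes the granule protein chromogranin B, was at 27.1 CPM against at least 6827 CPM in every other PPGL, and PNMT, the enzyme that makes epinephrine, was at 11.6 CPM against at least 22.4 CPM. This tumor also had the highest mitosis score (mean log2 CPM of 22 mitotic genes) of the 29 samples, 6.37, so results that rest on it are given with and without it. Group 1 replicate 5 had the lowest chromaffin score, 6.47, with TH, the first enzyme of catecholamine synthesis, at 2.15 CPM. Group 2 replicate 11 had the highest fibroblast and mural score of the 29 samples, 10.52 against a group 2 median of 6.33, the highest leukocyte score, 5.86 against 2.57, and the lowest mean correlation with its own group among group 2 tumors, 0.829. Without it, 4 of the 9 genes were still higher and 2 lower in PPGLs than in NAMs, and 0 were higher and 1 lower in group 1 than in group 2.

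Between PPGLs and NAMs, the D-type cyclins moved in opposite directions, while both kinases were higher in the tumors. Of the 9 genes, 4 rose (CCND1, CDK4, CDK6 and CDKN2C), 2 fell (CCND2 and CCND3), and RB1, CDKN1A and CDKN1B did not pass the threshold of an FDR-adjusted p below 0.05 in edgeR's quasi-likelihood test. Among all 14766 genes tested, 22.3% were called higher and 15.2% lower, against 44.4% and 22.2% of these 9 genes. Their median log2 FC was 0.44, against 0.13 over all genes. In the whole tissue, fewer cells of a type and less RNA per cell cannot be told apart.

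**Figure D1:**
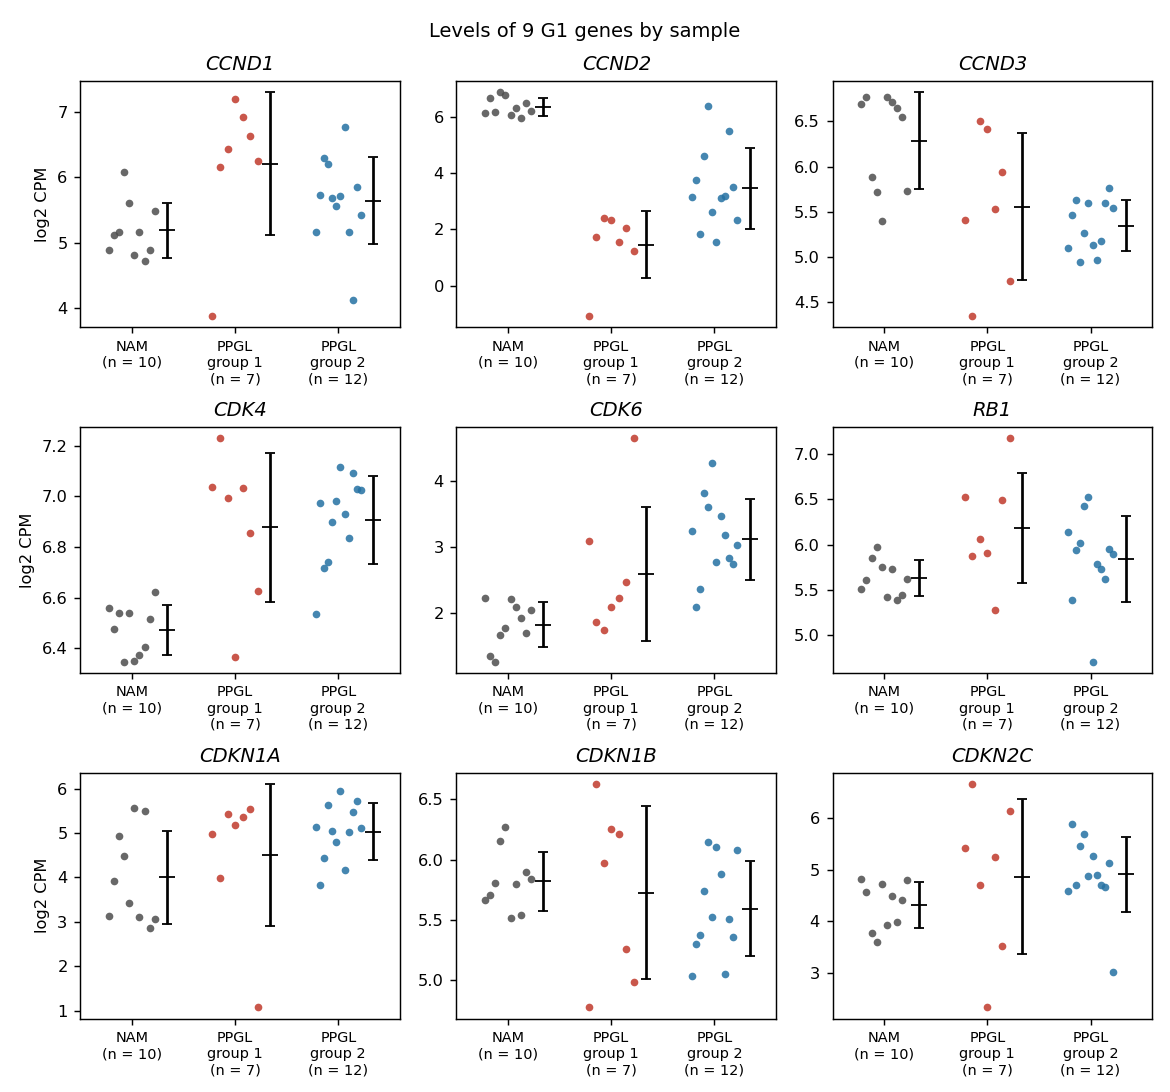
Log2 CPM of the 9 genes in each of 29 samples, with 1 point per sample for NAM (grey, n = 10), PPGL group 1 (red, n = 7) and PPGL group 2 (blue, n = 12), and bars for the mean ± SD of each group. Each panel has its own axis. CCND2 shows the widest gap, with the 7 group 1 tumors at or under 5.23 CPM and the NAMs at or above 61.7 CPM, and CDK4 the tightest groups.

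CCND1, which encodes cyclin D1, ranged from 26.2 to 67.3 CPM in NAMs with a median of 35.1. In group 1 it ranged from 14.6 to 146 CPM with a median of 85.9, and in group 2 from 17.3 to 108 CPM with a median of 51.9. The groups overlapped: 9 of 19 PPGLs lay above every NAM and 2 below every NAM, these 2 being group 1 replicate 1 and group 2 replicate 10. The log2 FC between PPGLs and NAMs was 0.81 (SE 0.28, FDR-adjusted p = 0.0200). Against NAMs alone, group 1 was higher by 1.20 on the log2 scale (SE 0.31, FDR-adjusted p = 0.00328), with 6 of 7 tumors above every NAM, whereas the difference of 0.52 in group 2 did not pass (SE 0.27, FDR-adjusted p = 0.146). These 2 comparisons share the NAMs, and the difference between the tumor groups themselves, 0.68 (SE 0.33), did not pass the threshold of 0.1 used for the groups (FDR-adjusted p = 0.267). Without group 1 replicate 1, in which CCND1 was lowest, that difference was 0.87 and passed (FDR-adjusted p = 0.0816).

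CCND2 encodes cyclin D2 and showed the largest change of the 9 genes. Its level was 61.7 to 117 CPM in NAMs with a median of 76.9. In group 1 the 7 tumors were at 0.394, 2.25, 2.83, 3.20, 4.03, 5.01 and 5.23 CPM, the lowest of these resting on 9 counts. In group 2 it ranged from 2.84 to 83.5 CPM with a median of 8.86. Every group 1 tumor and 11 of 12 group 2 tumors lay below every NAM, and the tumors with the highest levels were group 2 replicates 5 (83.5 CPM) and 10 (45.3 CPM). NAMs averaged 83.9 ± 19.1 CPM (SD, n = 10) and PPGLs 12.8 ± 19.97 CPM (n = 19), so that CCND2 fell in the tumors with a log2 FC of -2.71 (SE 0.51, FDR-adjusted p = 0.000177), or 6.52-fold. Group 1 was lower than NAMs by a log2 FC of -4.68 (SE 0.65, FDR-adjusted p = 5.00e-06) and group 2 by -2.19 (SE 0.47, FDR-adjusted p = 0.000800).

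CCND2 was also lower in group 1 than in group 2, at a mean of 3.28 ± 1.68 CPM (SD, n = 7) against 18.4 ± 23.6 CPM (n = 12). This gave a log2 FC of -2.50 (SE 0.69, FDR-adjusted p = 0.0521), with 3 of 7 group 1 tumors below every group 2 tumor. Without group 1 replicate 7 the call was lost (log2 FC -2.42, FDR-adjusted p = 0.108), and it was lost with the Mann-Whitney U-test as well (FDR-adjusted p = 0.116). Of 11 cortical markers, 10 were likewise lower in group 1 than in group 2. With the cortical score in the fit, the log2 FC of CCND2 between the groups was -0.69 (FDR-adjusted p = 0.916). In that fit 0 of 14666 genes were called, and the score itself nearly separated the groups (-0.50 to 3.49 against 2.82 to 9.64). The lost call is therefore not particular to CCND2. Without the covariate, 2.95% of all 14666 genes tested between the groups were lower in group 1 and 3.97% higher, against 1 and 0 of the 9 genes. None of the other 8 genes had an unadjusted p under 0.05 in edgeR's test, and DESeq2 also called 0 of the 9 higher.

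CCND3, which encodes cyclin D3, was at 42.3 to 109 CPM in NAMs with a median of 96.8. The 4 NAMs with the lowest levels, replicates 3, 4, 5 and 10, were at 42.3 to 58.8 CPM, and the other 6 at 93.2 to 109 CPM. In group 1 CCND3 ranged from 20.3 to 91.0 CPM with a median of 46.1, and in group 2 from 30.7 to 54.3 CPM with a median of 41.2. PPGLs and NAMs overlapped, with 8 of 19 tumors below every NAM. PPGLs had a log2 FC of -0.85 (SE 0.20, FDR-adjusted p = 0.00127), group 2 alone a log2 FC of -1.002 (SE 0.22, FDR-adjusted p = 0.000890) and group 1 a log2 FC of -0.64 that did not pass (SE 0.25, FDR-adjusted p = 0.0502).

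Because the 3 genes differ in exonic length, their shares were compared on the scale of CPM per kilobase of exon. Summed over the 3, the level had a median of 126 in NAMs, 103 in group 1 and 68.5 in group 2 on that scale. CCND2 made up a median of 37.1% of the sum in NAMs, with a range of 28.3% to 50.7%, but 1.89% in group 1 (0.566% to 3.01%) and 8.72% in group 2 (2.32% to 44.5%). CCND1 made up 14.7% in NAMs, 58.8% in group 1 and 43.9% in group 2. In NAMs the leading D-type cyclin was CCND3 in 7 samples and CCND2 in 3, and CCND1 led in none. CCND1 led in 5 of 7 group 1 tumors and 5 of 12 group 2 tumors, CCND3 led in 2 and 6, and CCND2 led in 1 tumor, group 2 replicate 5. These shares follow from the levels above and are a description, without a test of their own.

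**Figure D2:**
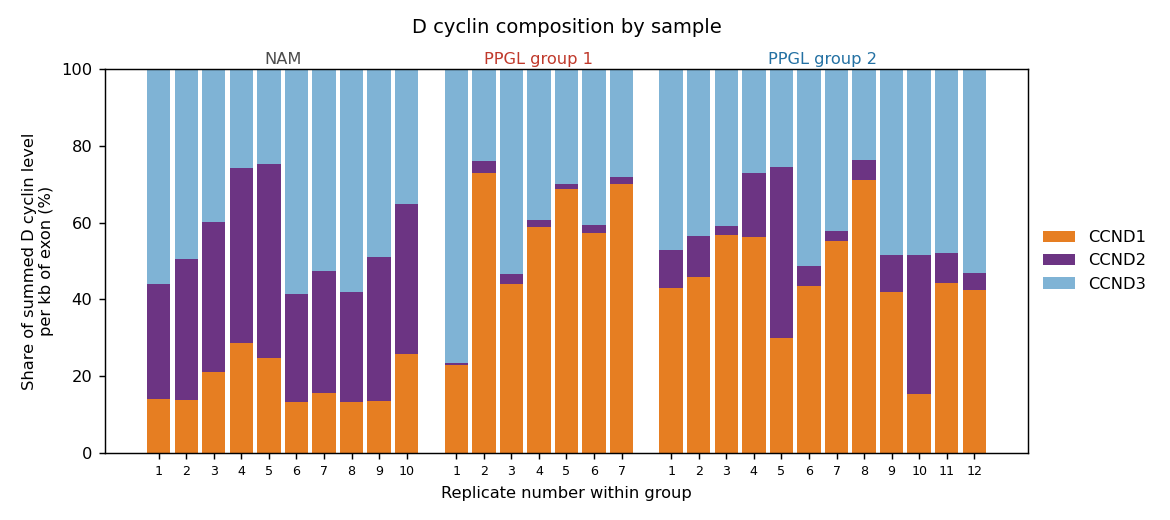
Share of CCND1 (orange), CCND2 (purple) and CCND3 (light blue) in the summed D-type cyclin level per kilobase of exon, in percent, with 1 bar per sample and replicate numbers on the horizontal axis. CCND2 takes 28.3% to 50.7% of each NAM, at most 3.01% of each group 1 tumor, and 44.5% and 36.3% in group 2 replicates 5 and 10.

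The cortical score bore on the D-type cyclins in different ways. With the score as a covariate, the log2 FC between PPGLs and NAMs was 0.13 for CCND1 (FDR-adjusted p = 0.840) and -1.16 for CCND2 (FDR-adjusted p = 0.171), so both calls were lost, whereas CCND3 remained lower. NAMs and tumors hardly overlapped in the score, with group 2 replicate 10 alone among the NAMs' range, so this fit leans on the straight-line form of the covariate. Within groups, the relation of each gene to the score was examined after the data had been seen, as 27 relations with permutation tests. In the 10 NAMs, CCND2 was not higher where the score was higher: Pearson r was -0.73 (permutation p = 0.0199, adjusted p = 0.108) and Spearman rho -0.65 (permutation p = 0.05001, adjusted p = 0.270), and r was -0.32 without NAM replicates 4 and 5. In group 2, r was 0.52 (permutation p = 0.0816, adjusted p = 0.367) and rho 0.45 (permutation p = 0.148, adjusted p = 0.664), with r = 0.13 without replicates 7 and 10.

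CCND1 and CCND3 related to the score in opposite directions among NAMs. For CCND1, r was -0.89 (permutation p = 0.000330, adjusted p = 0.00891) and rho -0.87 (permutation p = 0.00218, adjusted p = 0.0589). For CCND3, r was 0.88 (permutation p = 0.00109, adjusted p = 0.00981) and rho 0.75 (permutation p = 0.0183, adjusted p = 0.123). Without NAM replicates 4 and 5, the lowest in score, r was -0.79 for CCND1 and 0.76 for CCND3. The 4 NAMs with the lowest CCND3 were also the 4 with the lowest cortical scores, 8.62 to 9.40. The same 4 NAMs had the highest chromaffin scores, 9.72 to 10.55 against 8.69 to 9.13 in the other NAMs, so that in these samples a relation to the cortical score cannot be told apart from one to the chromaffin score. No relation of the 27 passed with both coefficients after adjustment, and 4 passed with Pearson r, all in NAMs: CCND1, CCND3, RB1 (r = -0.83, permutation p = 0.00385, adjusted p = 0.0260; rho = -0.83, permutation p = 0.00507, adjusted p = 0.0684) and CDKN1B (r = -0.89, permutation p = 0.00103, adjusted p = 0.00981; rho = -0.78, permutation p = 0.0107, adjusted p = 0.0960). Without NAM replicates 4 and 5, r was -0.74 for RB1 and -0.67 for CDKN1B. Values on the CPM scale depend on the other genes of a library, and the cortical markers alone summed to 14097 to 69042 CPM in NAMs. Any effect of this on the relations was not tested.

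**Figure D3:**
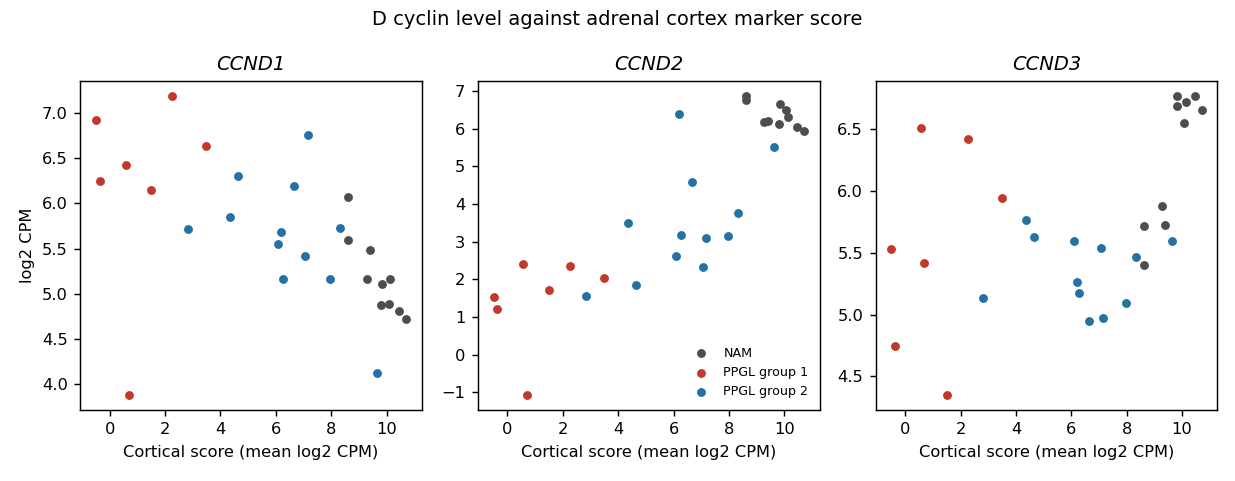
Log2 CPM of CCND1, CCND2 and CCND3 against the cortical score (mean log2 CPM of 11 adrenal cortex markers), with 1 point per sample for NAM (grey), PPGL group 1 (red) and PPGL group 2 (blue). Within NAMs, CCND1 lies lower and CCND3 higher at high scores (r = -0.89 and 0.88), CCND2 has r = -0.73, which did not pass after adjustment and was -0.32 without NAM replicates 4 and 5, and the group 1 tumors have scores of 3.49 or less.

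CDK4, the main kinase partner of the D-type cyclins in these tissues by level, was at 81.4 to 98.5 CPM in NAMs with a median of 90.2. It was at 82.4 to 150 CPM in group 1 with a median of 127, and at 92.7 to 139 CPM in group 2 with a median of 124. The groups nearly separated: 17 of 19 PPGLs were above every NAM, the exceptions being group 1 replicate 4 and group 2 replicate 1. The log2 FC was small but precise, at 0.44 (SE 0.085, FDR-adjusted p = 0.000252), which is 1.35-fold. It was 0.42 in group 1 (SE 0.11, FDR-adjusted p = 0.00302) and 0.44 in group 2 (SE 0.094, FDR-adjusted p = 0.000903), with a difference between the groups of -0.01 (SE 0.13, FDR-adjusted p = 0.982). The call between PPGLs and NAMs was kept with the cortical score as a covariate and without each sample in turn.

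CDK6, the second kinase of this pair, was low throughout. It was at 2.33 to 4.62 CPM in NAMs with a median of 3.53, at 3.28 to 24.9 CPM in group 1 with a median of 4.59, and at 4.17 to 19.1 CPM in group 2 with a median of 8.50. No tumor lay below every NAM, and 14 of 19 lay above every NAM, 3 of 7 in group 1 and 11 of 12 in group 2. The log2 FC was 1.30 between PPGLs and NAMs (SE 0.29, FDR-adjusted p = 0.00102) and 1.39 between group 2 and NAMs (SE 0.31, FDR-adjusted p = 0.00139). For group 1 it was 1.12 (SE 0.35, FDR-adjusted p = 0.0129), but without replicate 7, the tumor at 24.9 CPM, it was 0.48 and did not pass (FDR-adjusted p = 0.187). The difference between the tumor groups was -0.27 (SE 0.40, FDR-adjusted p = 0.753), and without replicate 7 it was -0.90. Per kilobase of exon, CDK4 made up 93.4% to 96.9% of the sum of both kinases in NAMs and 75.9% to 97.1% in PPGLs, with the lowest share in group 1 replicate 7.

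RB1 encodes the retinoblastoma protein, the main substrate of CDK4 and CDK6. It ranged from 41.9 to 62.5 CPM in NAMs with a median of 49.0, from 38.8 to 144 CPM in group 1 with a median of 66.6, and from 26.1 to 91.6 CPM in group 2 with a median of 60.3. Tumors lay on both sides of the NAMs, 8 of 19 above every NAM and 3 below, and the log2 FC of 0.42 did not pass (SE 0.18, FDR-adjusted p = 0.0609). Group 1 was higher by 0.65 (SE 0.21, FDR-adjusted p = 0.0165), but without replicate 7, where RB1 was highest, it was 0.44 and did not pass (FDR-adjusted p = 0.0839). In group 2 it was 0.26 (SE 0.18, FDR-adjusted p = 0.279). No tumor had RB1 near 0, the lowest level being 26.1 CPM in group 2 replicate 7.

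CDKN1A, which encodes p21, had the widest relative range of the 9 genes among the NAMs, from 7.21 to 47.3 CPM with a median of 12.9. In group 1 it ranged from 2.01 to 46.7 CPM with a median of 36.2, and in group 2 from 14.2 to 61.6 CPM with a median of 33.98. The ranges overlapped widely, with 3 PPGLs above every NAM and 1 below, group 1 replicate 7 at 2.01 CPM, while every other PPGL was at 14.2 CPM or more. The log2 FC of 0.73 did not pass (SE 0.36, FDR-adjusted p = 0.112), and without that tumor it was 0.80 and passed (FDR-adjusted p = 0.0368). It also passed without NAM replicate 6, the NAM with the highest level, at 0.96 (FDR-adjusted p = 0.0442).

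CDKN1B, which encodes p27, was at 45.7 to 77.0 CPM in NAMs with a median of 55.6. It was at 27.3 to 98.7 CPM in group 1 with a median of 62.8 and at 32.8 to 70.6 CPM in group 2 with a median of 45.8. The tumors spread more widely than the NAMs, 1 lying above and 9 below every NAM, and no difference was called: the log2 FC was -0.11 between PPGLs and NAMs (SE 0.17, FDR-adjusted p = 0.654) and 0.23 between group 1 and group 2 (SE 0.24, FDR-adjusted p = 0.637). Per kilobase of exon, CDKN1B had the highest median of the 9 genes in NAMs (93.2) and in group 1 (105), which rests on an annotated exonic length of 597 bases.

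CDKN2C encodes p18, the INK4 inhibitor of the list. Its level was 12.1 to 28.3 CPM in NAMs with a median of 21.8, 4.97 to 100.9 CPM in group 1 with a median of 38.0, and 8.07 to 58.7 CPM in group 2 with a median of 29.4. The tumors reached beyond the NAMs on both sides, with 11 of 19 above every NAM and 3 below. The log2 FC of 0.81 passed narrowly (SE 0.32, FDR-adjusted p = 0.0436) and was lost in 15 of the 29 fits that left out 1 sample (FDR-adjusted p from 0.0149 to 0.0757), with the Mann-Whitney U-test (FDR-adjusted p = 0.0515), without the low-count filter (FDR-adjusted p = 0.0569) and when the cortical score was added to the fit (0.42, FDR-adjusted p = 0.526). In group 1 it was 1.02 against NAMs (SE 0.38, FDR-adjusted p = 0.0383), and without replicate 7 it was 0.86 and did not pass (FDR-adjusted p = 0.0923).

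Against NAMs, then, 5 of the 9 genes rose in group 1 (CCND1, CDK4, CDK6, RB1 and CDKN2C) and 1 fell (CCND2), or 55.6% and 11.1%, where 21.0% of the 15201 genes tested were higher and 14.1% lower. Without group 1 replicate 7, CCND1 and CDK4 alone of the 9 were called higher. In group 2, 2 rose (CDK4 and CDK6) and 2 fell (CCND2 and CCND3), or 22.2% each, where 18.4% of all genes were higher and 14.5% lower, so the shares in group 2 were near those of all genes.

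**Figure D4:**
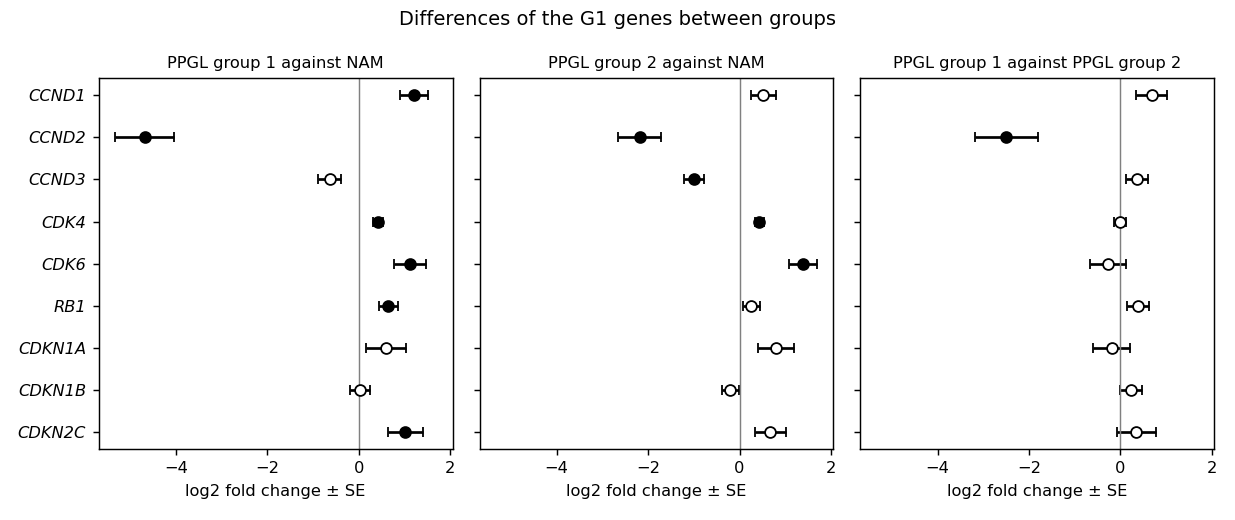
Log2 FC ± SE of the 9 genes for group 1 against NAM, group 2 against NAM and group 1 against group 2, with filled circles for calls (FDR-adjusted p below 0.05 against NAM, below 0.1 between the groups) and open circles for the rest. CCND2 is at -4.68, -2.19 and -2.50, and is the single call between the tumor groups.

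Downstream of RB1, most genes of the cyclin E and CDK2 axis and most E2F targets of S phase entry were higher in PPGLs than in NAMs. In the cyclin E and CDK2 axis, 6 of 7 genes rose, where 22.3% of all genes tested were higher and 15.2% lower. Against NAMs, 6 of 7 were higher in group 1 and 3 of 7 in group 2. The shares of all genes that were higher were 21.0% and 18.4%. Between PPGLs and NAMs, FBXW7, which marks cyclin E for degradation, was at a log2 FC of 0.28 (FDR-adjusted p = 0.360). CCNE2, which encodes cyclin E2, went from 1.64 CPM in NAMs to 6.66 CPM in PPGLs (a log2 FC of 2.02 with an SE of 0.41, FDR-adjusted p = 0.000390), with 17 of 19 tumors above every NAM. CCNE1 was at 15.02 CPM in NAMs and 38.2 CPM in the tumors (a log2 FC of 1.34, SE 0.29, FDR-adjusted p = 0.000736). SKP2, part of the ligase that degrades p27, rose by 1.53 on the log2 scale (FDR-adjusted p = 0.000933), CDK2 by 0.89 (FDR-adjusted p = 0.0134), the phosphatase gene CDC25A by 0.87 (FDR-adjusted p = 0.0100) and CKS1B by 0.51 (FDR-adjusted p = 0.0340).

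Of 11 E2F, DP and other pocket protein genes, 3 rose and 1 fell between PPGLs and NAMs, and E2F1 was not found by name. These counts are near the shares over all genes tested, 22.3% higher and 15.2% lower. RBL1, which encodes the pocket protein p107, rose by 0.46 (SE 0.17, FDR-adjusted p = 0.0280) and E2F8, an atypical repressor E2F, by 2.65 (SE 0.71, FDR-adjusted p = 0.00407). E2F2, an activator E2F, was called higher at a mean of 1.52 CPM in PPGLs (FDR-adjusted p = 0.000343). Its mean of 0.0706 CPM in NAMs was under the level of 3 counts, so no fold is given in the text. E2F2 and E2F8, the latter at a mean of 0.305 CPM in NAMs, entered the test through the tumors, where they were higher. Their p-values and their places among the 3 are therefore descriptive. E2F4, which mostly acts as a repressor with pocket proteins, had a log2 FC of -0.50 (SE 0.11, FDR-adjusted p = 0.000526), with 16 of 19 PPGLs below every NAM. Of the other INK4 genes, CDKN2A and CDKN2B were not found by name, and CDKN2D, which encodes p19, rose from 12.9 to 26.0 CPM (a log2 FC of 1.01 with an SE of 0.24, FDR-adjusted p = 0.00147).

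Among E2F target genes of S phase entry, 13 of 15 rose and 0 fell, with a median log2 FC of 1.54. Against NAMs, 15 of 15 were higher in group 1, 13 without replicate 7, and 4 of 15 in group 2 (median log2 FC 0.57). The shares of all genes that were higher were 21.0% and 18.4%. Over all genes tested between PPGLs and NAMs, 22.3% were higher and 15.2% lower, with a median log2 FC of 0.13. The replication licensing genes MCM6 (log2 FC 1.79, FDR-adjusted p = 3.05e-05) and CDC6 (3.07, FDR-adjusted p = 0.000253) and the cyclin A gene CCNA2 (2.67, FDR-adjusted p = 0.000259) had the smallest adjusted p of these targets. Of 22 mitotic genes 20 rose and 0 fell, with a median log2 FC of 2.49. The lowest adjusted p among them belonged to KIF20A (2.76), ASPM (2.49) and PRC1 (2.50), and MKI67, the gene of the Ki67 antigen, went from 4.67 to 33.7 CPM (2.85, FDR-adjusted p = 0.000816). The difference in MKI67 was 2.06 without group 1 replicate 7, which passed, and 1.07 with the cortical score in the fit, which did not. MYC, a growth transcription factor, rose from 38.8 to 107 CPM (by 1.47 on the log2 scale, SE 0.45, FDR-adjusted p = 0.0119). Group 1 was split, with 2 of 7 tumors above every NAM and 2 below every NAM. In group 2, 8 of 12 tumors lay above every NAM and 0 below.

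The counts of higher genes between PPGLs and NAMs changed little without group 1 replicate 7, to 6 of 7 cyclin E and CDK2 genes, 11 of 15 E2F targets and 18 of 22 mitotic genes. The sizes fell more: the median log2 FC went from 1.54 to 1.06 for the E2F targets and from 2.49 to 1.99 for the mitotic genes. For the cyclin E and CDK2 axis it went from 0.89 to 0.81. Once the cortical score entered the fit, with all tumors, the calls over all genes went from 5541 to 2163. The counts of higher genes in these lists then went to 1, 1 and 0, with a median log2 FC of 0.10 for the E2F targets and 0.83 for the mitotic genes. In the same fit, 0 of 11 E2F, DP and other pocket protein genes were higher and 3 lower, and neither CCNE2 (0.39) nor CDKN2D (0.64) was called, while CDK4 and CDK6 kept their calls.

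Between the tumor groups, where CCND2 alone of the 9 genes was called, none of the calls in these downstream lists was kept with the cortical score in the fit, and most were lost without group 1 replicate 7. With all tumors and no covariate, where 3.97% of all genes were higher, 3 of 7 cyclin E and CDK2 genes were higher in group 1 (CCNE2, CDC25A and CKS1B), as were 2 of 11 E2F family genes (E2F2 and E2F7), 11 of 15 E2F targets and 16 of 22 mitotic genes, with 0 lower in each list. Without group 1 replicate 7, the counts of higher genes were 1 of 7 (CCNE2), 0 of 11, 2 of 15 and 2 of 22. The calls over all genes then fell from 1015 to 525. The median log2 FC went from 1.36 to 1.05 for the E2F targets and from 1.66 to 0.85 for the mitotic genes. Without group 2 replicate 11, the counts were 1 of 7, 3 of 11, 10 of 15 and 14 of 22. With the cortical score in edgeR's fit, 0 of 14666 genes were called, CCNE2 among those lost, and 1510 had an unadjusted p under 0.05. In that fit the median log2 FC was 0.45 for the E2F targets and 0.53 for the mitotic genes. Cortical scores were -0.50 to 3.49 in group 1 and 2.82 to 9.64 in group 2. CCNE2 was at 12.0 CPM in group 1 against 3.54 CPM in group 2 (log2 FC 1.75, SE 0.33, FDR-adjusted p = 0.00885), with 5 of 7 group 1 tumors above every group 2 tumor, and its log2 FC was 1.33 without replicate 7 and 1.05 with the cortical score in the fit, which did not pass. CCNE1 was at 40.9 and 36.6 CPM (log2 FC 0.18, SE 0.39, FDR-adjusted p = 0.847), CDKN2D at 30.2 and 23.5 CPM (FDR-adjusted p = 0.540) and E2F7, a repressor E2F, at 12.1 and 2.16 CPM (log2 FC 2.46, SE 0.63, FDR-adjusted p = 0.0381). MKI67 was higher by 1.80 (SE 0.55, FDR-adjusted p = 0.0764), which became 0.44 without replicate 7 and did not pass. MYC did not differ by a call (FDR-adjusted p = 0.870), but 2 of 7 group 1 tumors lay above every group 2 tumor and 5 below every one.

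**Figure D5:**
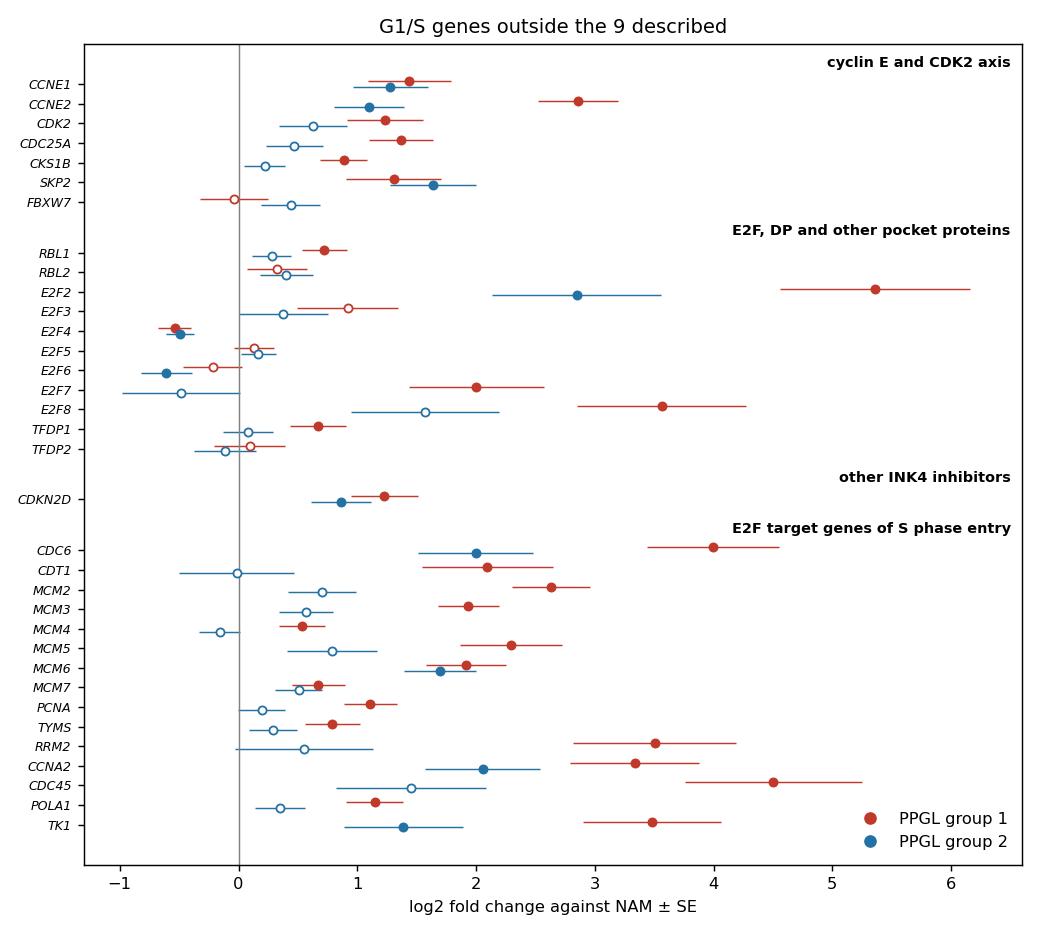
Log2 FC against NAM ± SE for group 1 (red) and group 2 (blue) of the cyclin E and CDK2 axis, the E2F, DP and other pocket proteins, CDKN2D and the E2F targets, with filled circles for an FDR-adjusted p below 0.05 and open circles for the rest. E2F2 is drawn although its NAM mean of 0.0706 CPM is under the level of 3 counts, so its points do not give a reliable fold. In group 1, 15 of 15 E2F targets are called higher, 13 without replicate 7, and in group 2, 4 of 15. Over all genes tested, 21.0% are called higher in group 1 and 18.4% in group 2.

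Whether the 9 genes followed proliferation from tumor to tumor was examined against the mitosis score within each tumor group, as 18 relations. By permutation test, 0 passed after adjustment (smallest adjusted p = 0.0750 for Pearson r and 0.129 for Spearman rho) and 2 had an unadjusted p under 0.05 with each coefficient. In group 1 (n = 7), CDKN1A was lower in tumors with a higher score, with r = -0.85 (exact permutation p = 0.00417, adjusted p = 0.0750) and rho = -0.71 (exact permutation p = 0.0881, adjusted p = 0.494). Without replicates 6 and 7, the farthest in score, r was -0.76. In group 2 (n = 12), r for CDKN1A was 0.16 (permutation p = 0.625, adjusted p = 0.924). CDKN1B in group 2 had r = -0.69 (permutation p = 0.0150, adjusted p = 0.135) and rho = -0.75 (permutation p = 0.00715, adjusted p = 0.129), with r = -0.50 without replicates 1 and 12. Against MKI67 alone, it had r = -0.49 and rho = -0.37, and in group 1 its r with the mitosis score was 0.01 (exact permutation p = 0.990, adjusted p = 0.990). CDKN2C in group 1 had rho = 0.82 (exact permutation p = 0.0341, adjusted p = 0.307) and r = 0.64 (exact permutation p = 0.123, adjusted p = 0.556).

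The genes around each of the 9 were also counted, where 22.3% of all genes tested were higher and 15.2% lower in PPGLs. Within 500 kb of CCND2, 7 other genes were tested between PPGLs and NAMs, of which 2 were higher and 2 lower, with a median log2 FC of 0.45, against -2.71 for CCND2 itself. Around CDK4, 29 genes were tested, 7 higher and 2 lower with a median of 0.34, and around CDK6, 13 genes with 3 higher and 1 lower and a median of 0.26. Around CCND1, 5 genes were tested with 2 higher and a median of 0.14, and around CCND3, 12 genes with 5 higher, 1 lower and a median of 0.12. Around RB1, 0 of 9 genes were higher and 1 lower (median 0.15), around CDKN1A 6 of 16 were higher and 1 lower (median 0.40), around CDKN1B 1 of 12 was higher and 0 lower (median 0.084), and around CDKN2C 1 of 5 was higher and 1 lower (median 0.0053). DNA copy number was not measured here.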

How the data were processed

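RNA of 29 tissue samples was sequenced from TruSeq Stranded mRNA libraries as single-end reads of 50 bp. The authors deposited 1 table of raw counts of reads on exons per Ensembl gene of CanFam3.1, without normalization. The submitters' processing notes name FastQC, STAR, Picard and HTSeq, while the table has the columns of featureCounts, and the strand setting was not given in the sources used here. All 24051 genes with a count entered the filter, and genes were matched by the symbols in the table.

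Genes were filtered with filterByExpr (minimum count 10, minimum total 15), normalized by TMM and tested with edgeR 4.0.16's quasi-likelihood F test (R 4.3.3) with Benjamini-Hochberg adjustment over all genes tested; the SE was derived from the F statistic. The fit of PPGLs against NAMs held 29 samples, that of the tumor groups the 19 PPGLs, and that of each tumor group against NAMs all 3 groups. Thresholds on the FDR-adjusted p were 0.05 and, between tumor groups, 0.1, as in the study. Log2 CPM used a prior count of 2, and 3 counts were taken as the smallest level that could be shown. Scores were means of log2 CPM, and relations to them were tested by two-sided permutation, exact for 7 tumors and with 100000 permutations otherwise. Genes named are the 9 members, the called genes of the cyclin E, E2F and INK4 lists, MKI67 and MYC, and up to 3 genes by adjusted p of each other list; some items that this rule covers are not reported here. FBXW7, CCNE1 and CDKN2D between the tumor groups, the neighbours and CHGB, PNMT and TH were named after their values were seen.

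The members and the gene lists were chosen with earlier results of these data known. The replicate numbers of the groups count different dogs. The comparisons of PPGLs with NAMs and of the tumor groups were repeated with other scalings (DESeq2's size factors, library size), other tests (DESeq2 1.42.0's Wald test, the Mann-Whitney U-test), other filters, a block for the sample number, a covariate for the cortical score, all 3 groups in the fit (tumor groups only) and each sample left out. Each tumor group against NAMs was repeated with library size alone, a replicate block and the pair of groups alone, and the relations to the mitosis score with MKI67 alone, library size CPM and without the 2 farthest tumors. The fit of group 1 against NAM without group 1 replicate 7, the list counts without that tumor, without group 2 replicate 11 or with the covariate, and the relations to the cortical score were added after the data were seen. The scripts were tested on simulated data.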

Additional observations from a re-analysis of the deposited data

Results flagged for a closer look

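In the 7 tumors of group 1 and the 10 NAMs, 18 groups of values (9 genes in 2 groups) were checked for a sample far from the others, and the 12 tumors of group 2 were not. This found 3, where chance gives about 1 in 20. CCND1 in group 1 replicate 1 was at a log2 CPM of 3.88, with a gap to the nearest tumor of 0.686 of the group's range. CCND2 in the same tumor was at -1.06 (gap 0.658 of the range), which rests on 9 counts. CDKN1A in group 1 replicate 7 was at 1.07 (gap 0.652 of the range). Replicate 1 had CCND3 at 42.5 CPM, so its D-type cyclins were led by CCND3 at 76.5% of the sum per kilobase of exon.

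The log2 FC of CCND2 between group 1 and group 2 was -2.50 (FDR-adjusted p = 0.0521), a difference between the tumor groups that passed the threshold of 0.1. It did not pass without group 1 replicate 7 (FDR-adjusted p = 0.108), with the Mann-Whitney U-test (0.116), with the replicate block (0.399) or with the cortical score as a covariate (0.916), and the groups were drawn from these same samples. The log2 FC hardly moved without replicate 7, was somewhat smaller in size with the block and much smaller with the covariate.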

How the results depend on the processing

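Between PPGLs and NAMs, the directions of all 9 log2 FCs were kept under every alternative, and CCND3, CDK4 and CDK6 kept their calls in each. With the cortical score as a covariate, 2 of the 9 genes were called higher, 1 was called lower and 2163 genes in all were called. Leaving out 1 sample gave 3 to 4 of the 9 higher and 2 lower. CCND1 lost its call with the replicate block (0.68, FDR-adjusted p = 0.0573), and RB1 gained one with library size alone (0.51, FDR-adjusted p = 0.0492) and without group 1 replicate 5, group 2 replicate 2 or group 2 replicate 7 (FDR-adjusted p = 0.0214 to 0.0438). With library size alone, the median log2 FC of all genes moved from 0.13 to 0.20.

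Between the tumor groups, 1015 genes were called, against 2054 with DESeq2, 386 with the Mann-Whitney U-test, 47 with the replicate block, 2567 with 3 groups in the fit, 525 to 1218 without 1 tumor (525 without group 1 replicate 7, 674 without group 2 replicate 4) and 0 with the cortical covariate. The number of the 9 genes called lower was 0 with the Mann-Whitney U-test, the replicate block (CCND2 -1.92, FDR-adjusted p = 0.399) and the cortical covariate (CCND2 -0.69, FDR-adjusted p = 0.916), and 0 to 1 without 1 tumor, as was the number called higher. Uncalled differences changed sign: CDK4 was at 0.050 with library size alone, 0.041 with the Mann-Whitney U-test, 0.027 with the replicate block and -0.072 to 0.066 without 1 tumor, CDKN1A at 0.093 with the Mann-Whitney U-test and -0.32 to 0.031 without 1 tumor, and CDKN2C at -0.26 with the replicate block, -0.27 with the cortical covariate and -0.037 to 0.55 without 1 tumor. The cause was not tested.

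Group 1 against NAM gave 2 of the 9 genes higher with the replicate block and 2 without group 1 replicate 7, and CDKN1B was at -0.084 with the block. With the pair of groups alone in the fit, CDKN2C was not called in group 1 (FDR-adjusted p = 0.0584) and was called in group 2 (0.68, FDR-adjusted p = 0.0272). The replicate numbers count different dogs: of 24 pairs of samples with the same number, 2 had deviations correlated above 0.1 (range -0.23 to 0.25). Depth limits CCND2 most, at 9 counts in group 1 replicate 1. With MKI67 alone in place of the mitosis score, 7 of the 18 correlations changed by more than 0.2 in r, among them CDK4 in group 2 from r = -0.41 to -0.71, and 10 did without the 2 tumors farthest in score.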
